A study of Mus musculus with 6 samples.

Results

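Gene expression at 20 mg and at 2 mg maternal folic acid (FA) was compared over the 5 brightest of 6 single-colour Agilent arrays of newborn mouse cerebellum. C57BL/6J dams ate a custom AIN-93G amino acid diet from a week before mating through pregnancy, with 2 mg FA in each kg of it in the control group and 20 mg in the other. The RNA on an array was pooled from 3 pups at postnatal day 1, each from a different dam within the pool. The replicate is thus the pool, and precision is limited by having few arrays. The paper fed 6 dams on each diet, so pools of a group may share dams. The 2 mg FA group has 1 female and 1 male array, and the 20 mg FA group has female replicate 1 and male replicates 1 and 2. For the 20 mg group the paper repeated the RNA extraction with pools from another batch. The labels do not say which arrays hold that batch. The second female array at 20 mg had a median processed signal of 5.17, against 41.8 to 178 on the other arrays, and was left out because the median lay under 10. The titles and the extraction protocol give the tissue as cerebellum, while another field of the labels says whole brain. Of the 22339 genes named on the array, 14246 had a probe well above background on all 5 arrays. A gene was described when every 20 mg value lay on the same side of both 2 mg values, which held for 2294 genes, or 16.1% of those tested. With labels dealt at random to 3 and 2 arrays, a share of 0.2 would be expected to separate, which is more than this. The measured values themselves chose the 2294 genes, so their differences are a description.

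Folate is taken up by receptors and carriers and kept in cells by polyglutamation. The folate cycle then passes single carbon units to thymidylate and purine synthesis and to the remethylation of homocysteine to methionine. S-adenosylmethionine, formed from methionine, donates the methyl group for methylation of DNA, histones and many small molecules. In the newborn cerebellum granule cell precursors still divide in the external granule layer under Sonic hedgehog from Purkinje cells, and Purkinje cells begin to form their layer.

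Every value below is a quantile-normalized log2 signal of the brightest probe of a gene, listed in the order female 2 mg, male 2 mg, female 20 mg replicate 1, male 20 mg replicate 1 and male 20 mg replicate 2. Differences are the mean of 3 arrays at 20 mg minus the mean of 2 arrays at 2 mg, with the standard error of limma, a linear model fitted over all probes. Higher on every 20 mg array were 1174 genes, 8.24% of the genes tested, and lower on every 20 mg array were 1120 genes, 7.86%. Of the separated genes 51.2% were thus higher, against 38.8% when arrays were shifted to a common 75th percentile in place of quantile normalization. Leaving out an array separates more genes, since fewer values have to agree. Without male 20 mg replicate 2, 5032 genes were higher and 2274 lower, and without female 20 mg replicate 1, 2480 and 2749. The median difference was 0.61 (1.53-fold) among the higher and -0.54 (1.46-fold) among the lower genes, while it was -0.02 over all genes. The smallest distance between the doses, called the gap, was also small, with a median of 0.15 among the higher and 0.12 among the lower genes. A gap of at least 2-fold was seen in 18 higher and 3 lower genes. Past a 2.5-fold difference of means, the limit in the study's methods, were 177 genes (1.24% of those tested), of which 62 were higher and 45 lower with no overlap between the doses. limma called 0 of 25746 probes at an adjusted p under 0.05, each probe having an adjusted p of 1, and 393 probes (1.53%) had an unadjusted p under 0.05. With 3 arrays against 2, the exact two-sided permutation test of a single gene cannot give a p below 0.2. With slide as a term limma called 2460 probes, but then only slide 1, with a single array at 20 mg and 1 residual degree of freedom, gives the difference.

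The 3 arrays at 20 mg stood apart from each other. Of all genes tested, male 20 mg replicate 1 was above both 2 mg values at 57.9% and male 20 mg replicate 2 below both at 61.1%. The male arrays at 20 mg lay on opposite sides of the 2 mg range at 6232 genes (43.7%) and on the same side at 5232 (36.7%). Female 20 mg replicate 1, on the slide of both 2 mg arrays, was above at 45.2% and below at 36.3%. The 2 mg arrays differed from each other with an SD of 0.35 over genes, and the male arrays at 20 mg with an SD of 1.25. The narrow range of the 2 mg arrays, which lie on 1 slide, left 67.7% of genes outside it on all 3 arrays at 20 mg, in whichever direction.

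**Figure D1:**
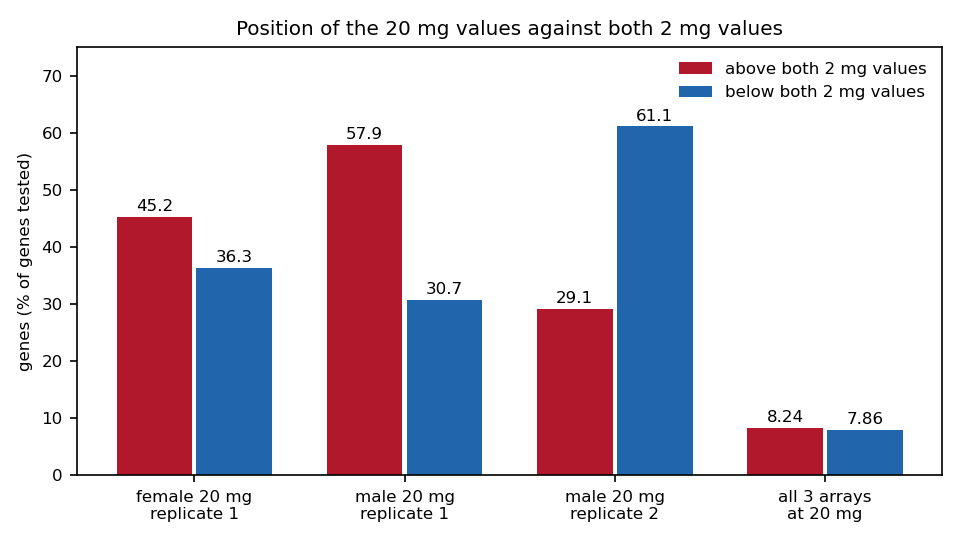
Share of the 14246 genes tested (vertical axis, %) whose value on each 20 mg array, and on all 3 of them, lies above (red) or below (blue) both 2 mg values. Single arrays put 29.1% to 61.1% of genes on a given side, and 8.24% and 7.86% remain for all 3 arrays.

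Slide 1 held both 2 mg arrays together with female 20 mg replicate 1, slide 2, scanned on an earlier day, held male 20 mg replicate 1, and slide 3 held male 20 mg replicate 2. For the male arrays at 20 mg, slide and dose therefore cannot be told apart. The share of G and C bases in the probe moved with the direction. Over all probes 9.38% were higher and 7.41% lower on every 20 mg array. Probes higher on every 20 mg array made up 0% of probes under 30% GC and 18.6% of probes at 55% GC and over, while the lower ones made up 18.9% and 1.37%. The median probe had 45% GC among the higher genes, 35% among the lower genes and 41.7% among all genes. On male 20 mg replicate 2 the median difference from the 2 mg mean ran from -0.97 in the lowest to 0.71 in the highest class of GC content. On female 20 mg replicate 1 it ran the other way, from 0.08 to -0.11. After each array had been centred within classes of GC content, a step added after seeing the data, 1341 genes were higher and 1274 lower, and these included 752 of the 1174 and 696 of the 1120.

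**Figure D2:**
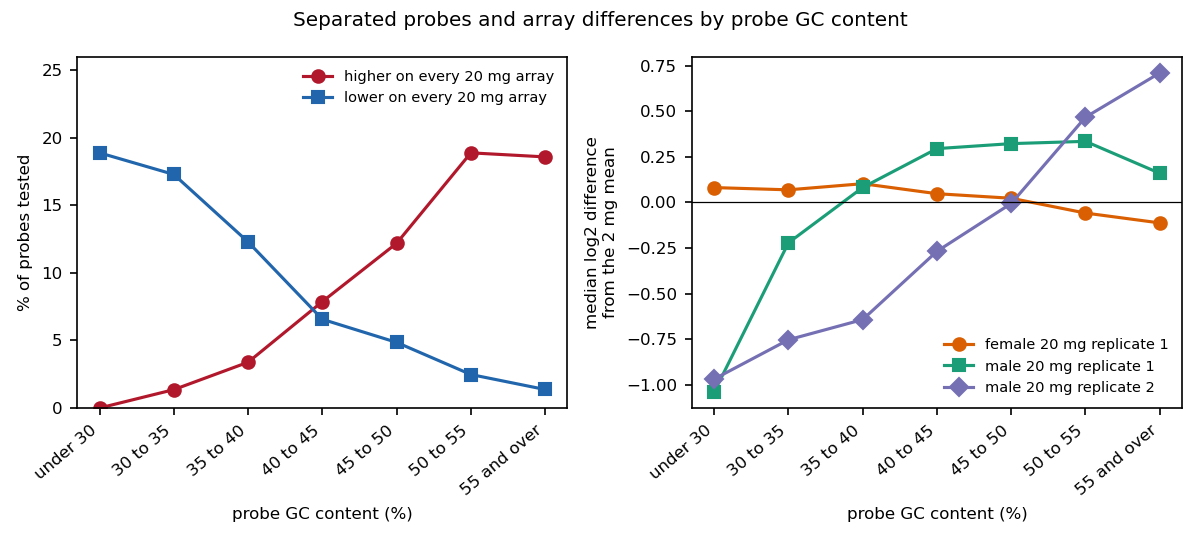
By class of probe GC content (horizontal axes, %), left, the share of the 25746 probes higher (red) or lower (blue) on every 20 mg array, and right, the median log2 difference of each 20 mg array from the 2 mg mean. The higher share climbs from 0% to 18.6% and the lower share drops from 18.9% to 1.37%.

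The genes with the widest gaps included Ccl19, a chemokine that guides cells carrying Ccr7, Reln, the secreted protein that positions migrating neurons, and Zbtb33 (Kaiso), a transcription factor that binds methylated CpG. Mthfd2, a mitochondrial enzyme of the folate cycle, led its list. Because FA feeds methyl groups toward CpG sites, the 250 bases before the start of these genes are shown from RefSeq (GRCm38.p6), 5′ to 3′ on the strand of the gene, with each CpG in capitals. Methylation was not measured here. The windows lie at chr5:22344706-22344955 (minus strand) for Reln, chr4:42756366-42756615 (minus) for Ccl19, chrX:38189543-38189792 (plus) for Zbtb33 and chr6:83317605-83317854 (minus) for Mthfd2.
Reln: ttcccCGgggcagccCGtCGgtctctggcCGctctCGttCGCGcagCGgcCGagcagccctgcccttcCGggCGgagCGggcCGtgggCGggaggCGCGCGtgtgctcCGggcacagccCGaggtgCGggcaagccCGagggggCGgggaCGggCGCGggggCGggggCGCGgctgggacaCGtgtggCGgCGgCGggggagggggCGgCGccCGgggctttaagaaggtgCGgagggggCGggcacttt
Zbtb33: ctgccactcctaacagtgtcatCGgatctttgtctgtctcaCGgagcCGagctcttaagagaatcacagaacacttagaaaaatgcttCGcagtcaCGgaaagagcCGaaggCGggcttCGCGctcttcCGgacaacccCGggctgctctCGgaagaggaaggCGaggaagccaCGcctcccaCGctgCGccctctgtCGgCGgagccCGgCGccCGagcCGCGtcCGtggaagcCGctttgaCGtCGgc
Ccl19: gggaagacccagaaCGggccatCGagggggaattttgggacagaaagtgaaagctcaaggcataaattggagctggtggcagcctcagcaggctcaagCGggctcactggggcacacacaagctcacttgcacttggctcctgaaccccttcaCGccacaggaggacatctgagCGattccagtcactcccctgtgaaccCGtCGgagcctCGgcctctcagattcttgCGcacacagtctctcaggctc
Mthfd2: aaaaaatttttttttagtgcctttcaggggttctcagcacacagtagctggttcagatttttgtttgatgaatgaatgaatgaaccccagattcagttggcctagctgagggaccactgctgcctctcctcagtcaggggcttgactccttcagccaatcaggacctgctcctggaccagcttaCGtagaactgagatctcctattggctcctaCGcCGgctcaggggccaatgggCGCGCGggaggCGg
The window of Reln holds 37 CpG, that of Zbtb33 holds 27, that of Ccl19 holds 9 and that of Mthfd2 holds 7. CpG reads the same on both strands, so each was counted once. The Ccl19 window is that of the RefSeq gene with this name. Near-identical copies lie on chromosome 4, and the start of a copy that the probe may read is not shown. The median was 15.5 CpG among the 942 higher genes with a sequence, 16 among 871 lower genes and 15 among all 11195, and at least 10 CpG were found in 71.7%, 73.4% and 70.6% of these windows. Promoter CpG content was thus close to that of all genes in both directions.

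Among the 12 genes with the widest gap at higher values, Ccl19 came first (probe on chromosome 4, 42250105 to 42250164 in mm9). Its log2 signals were 6.44, 7.46, 9.60, 9.50 and 9.64, a difference of 2.63 ± 0.51 (6.19-fold). The 3 arrays at 20 mg agreed to an SD of 0.07, and the 2 mg arrays were 1.01 apart. Ccl19 has near-identical copies on chromosome 4, so the probe may read several of them, and 1 of the 2 other probes with this name was also higher on every array. Adcy3, an adenylyl cyclase of neuronal cilia and olfactory neurons, was read at 4.92, 4.996, 6.67, 7.76 and 6.56 (chromosome 12, 2.04 ± 0.48), dim on both 2 mg arrays and brightest on male 20 mg replicate 1. Reln was read at 6.01, 6.35, 7.69, 8.62 and 7.86 (chromosome 5, 1.87 ± 0.49). All 5 Reln signals were dim, below the median signal of 10.69 over the genes tested. In newborn cerebellum Reln is made by granule cell precursors and nuclear neurons, and it was the sole member of the granule cell list that was separated. Rbm47, an RNA-binding protein, stood at 6.59, 6.92, 8.67, 9.65 and 8.24 (chromosome 5, 2.10 ± 0.57). Mid1, a ubiquitin ligase on microtubules that is encoded on the X chromosome, stood at 5.27, 5.60, 7.60, 8.09 and 6.75 (2.05 ± 0.52). In these genes male 20 mg replicate 1 gave the highest value, while for Ccl19 the 3 arrays at 20 mg lay within 0.14 of each other.

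Gm3317 (9.41, 9.52, 11.22, 11.29 and 11.02) and Gm3264 (8.96, 9.26, 11.08, 10.82 and 10.61) belong to a family of near-identical predicted genes on chromosome 14, so their probes are not independent. Their differences were 1.72 ± 0.38 and 1.73 ± 0.41, with little spread within each dose. Zcchc14, a zinc finger protein on chromosome 8, was higher by 1.92 ± 0.47, and Zfp963, another on that chromosome, by 1.52 ± 0.42. The other 3 were Pisd-ps3, a pseudogene of phosphatidylserine decarboxylase (1.71 ± 0.49), Bhlhb9 (1.63 ± 0.50) and Efna4, an ephrin ligand of Eph receptors (1.33 ± 0.44). All 12 kept their side after centring by GC content. On the array left out for its low signal, Ccl19 alone of the 12 was well above background, and it lay 2.63 above the 2 mg mean there. Of the 12 lower genes with the widest gap, described next, 4 were well above background on that array, with Idh1 and Dgkk below both 2 mg values and Trib3 and H2bc4 above both.

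**Figure D3:**
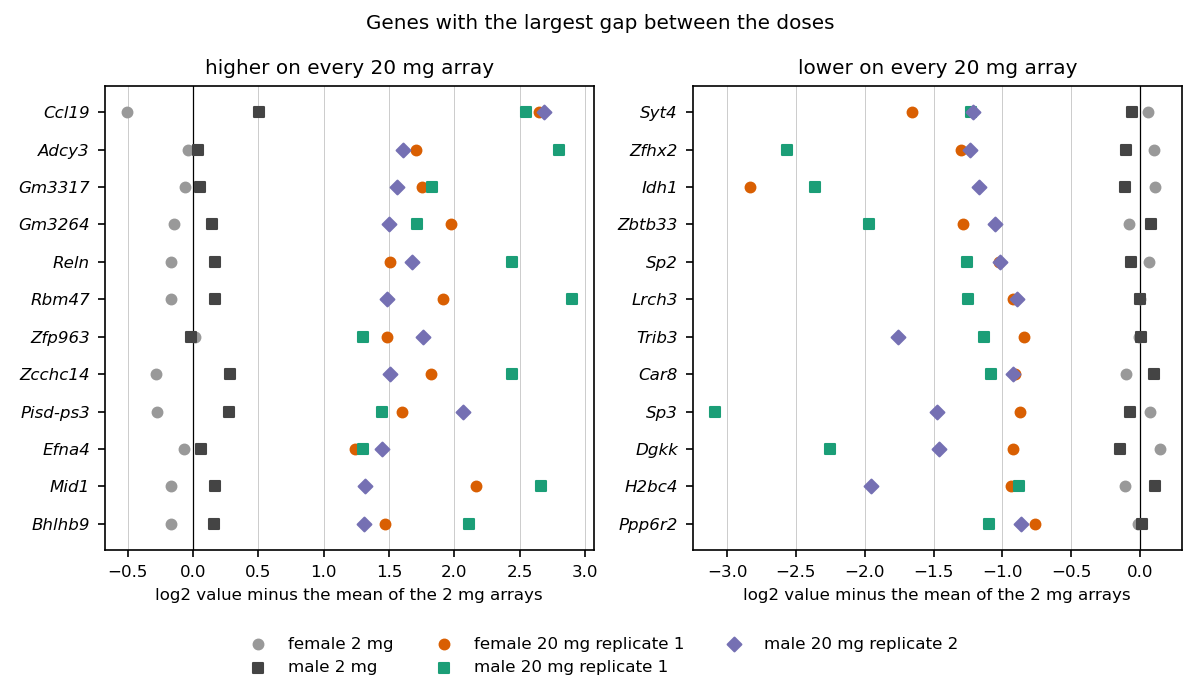
Log2 signal minus the mean of the 2 mg arrays (horizontal axes) for the 12 genes with the widest gap in each direction, a point for each array. For Ccl19 the 20 mg points lie near 2.63, and for Idh1 the mean of the 20 mg points is -2.12.

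Among the 12 genes with the widest gap at lower values, Syt4, a synaptotagmin of dense-core vesicles on chromosome 18, came first with 12.72, 12.60, 11.00, 11.43 and 11.45 (-1.37 ± 0.34). Zfhx2, a homeodomain factor, stood at 9.05, 8.85, 7.65, 6.38 and 7.71 (-1.70 ± 0.58), although its other probe was not separated. Idh1, the cytosolic isocitrate dehydrogenase that supplies NADPH, had the largest difference of the 12, with 11.30, 11.08, 8.36, 8.83 and 10.02 (chromosome 1, -2.12 ± 0.58, 4.35-fold). Female 20 mg replicate 1 gave the lowest Idh1 value, on the slide of both 2 mg arrays. Zbtb33 stood at 10.75, 10.92, 9.55, 8.86 and 9.78 (X chromosome, 35549874 to 35549933 in mm9, -1.44 ± 0.46). Trib3, a pseudokinase induced by the integrated stress response, stood at 10.27, 10.28, 9.43, 9.14 and 8.52 (-1.25 ± 0.48). Car8, a carbonic anhydrase-related protein abundant in Purkinje cells, stood at 10.91, 11.11, 10.10, 9.93 and 10.09 (-0.97 ± 0.38). The 3 arrays at 20 mg were within 0.18 of each other for Car8, but it was the single gene of these 24 that lost its side after centring by GC content, and its other probe was not separated.

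Both GC-box binding factors Sp2 (-1.10 ± 0.44) and Sp3 (-1.81 ± 0.72) were in this group, Sp3 with a wide range at 20 mg of 8.37, 6.15 and 7.76. Dgkk, a diacylglycerol kinase encoded on the X chromosome, was lower by 1.55 ± 0.48 on the log2 scale. H2bc4 (Hist1h2bc on the array), a histone H2B, differed by -1.26 ± 0.43, Lrch3 by -1.02 ± 0.41 and Ppp6r2, a regulatory subunit of protein phosphatase 6, by -0.91 ± 0.45. Of the 501 X-linked genes tested, 59 were lower (11.8%) and 23 higher (4.59%) on every 20 mg array, against 7.86% and 8.24% of all genes. These counts were not centred by GC content, which moved with the direction, and its part in them was not tested.

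Of the 30 genes of folate transport and the folate cycle, 26 were tested, and 5 were higher and 1 was lower on every 20 mg array (19.2% and 3.85%). The shares of all genes were 8.24% and 7.86%. The median difference of the list was 0.18 against -0.02 over all genes, and no member passed 2.5-fold. Among the receptors, Folr1 was read at 8.11, 9.27, 10.28, 9.42 and 9.90 (1.18 ± 0.55) and Folr2 at 6.13, 6.30, 7.03, 7.55 and 6.32 (0.75 ± 0.49), the latter only 0.02 above the 2 mg range on male 20 mg replicate 2. The 2 mg arrays themselves were 1.16 apart for Folr1. Of the carriers, Slc19a1, the reduced folate carrier, differed by 0.40 ± 0.39, Slc46a1, the proton-coupled transporter, by -0.24 ± 0.43 and the mitochondrial Slc25a32 by 0.29 ± 0.71, each overlapping. Fpgs, which adds the glutamate tail, and Ggh, which removes it, also overlapped, at 0.34 ± 0.51 and -0.31 ± 0.42.

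Among the enzymes, Mthfd1, the cytosolic trifunctional enzyme, stood at 11.09, 11.12, 11.46, 11.93 and 11.25 (0.44 ± 0.37), and Shmt2, the mitochondrial serine hydroxymethyltransferase, differed by 0.51 ± 0.45. Mthfd2 was the lower member, with 10.13, 10.28, 9.53, 8.53 and 9.61 (-0.98 ± 0.51), and it overlapped after centring by GC content, as Folr1 did. The enzymes of nucleotide synthesis described here overlapped. Tyms differed by 0.34 ± 0.80, Gart by -0.33 ± 0.58 and Atic by -0.50 ± 0.46. For Tyms the male arrays at 20 mg were 7.24 and 9.70, on opposite sides of the 2 mg values of 7.78 and 7.76. The differences of 11 further overlapping members ran from -0.66 (Mthfs) to 0.45 (Sardh). With male 20 mg replicate 2 left out 15 of 27 members were higher and 2 lower, and with male 20 mg replicate 1 left out 6 of 27 were higher and 3 lower, with the median at -0.04. All genes moved too, with 5032 of 15061 higher and 2274 lower in the former setting, and 1562 of 15213 and 2693 in the latter.

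In the methionine cycle and transsulfuration 17 of 21 genes were tested, 1 was higher and 0 were lower. Gnmt, the glycine methyltransferase that consumes S-adenosylmethionine, stood at 7.93, 7.69, 8.24, 8.62 and 8.87 (0.77 ± 0.48), with all 3 arrays above the 2 mg range. Mtr, methionine synthase, overlapped at 10.39, 10.44, 10.31, 9.79 and 12.01, where male 20 mg replicate 2 alone was high. Mat2a (0.07 ± 0.30), Mat2b (-0.02 ± 0.46), Ahcy (-0.18 ± 0.46), Ahcyl1 (0.55 ± 0.42), Cbs (0.02 ± 0.39) and Cth (-0.72 ± 0.71) overlapped too. The 9 other tested members, all overlapping, lay between -0.87 (Mtap) and 0.21 (Srm). Of 21 tested writers, readers and erasers of DNA methylation, Tet3, which oxidizes methylcytosine, was higher with 6.20, 6.37, 6.66, 7.78 and 7.56 (1.05 ± 0.50). Zbtb33 was lower, and Mbd6 was lower by a gap of only 0.01. The DNA methyltransferases tested were not separated.

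**Figure D4:**
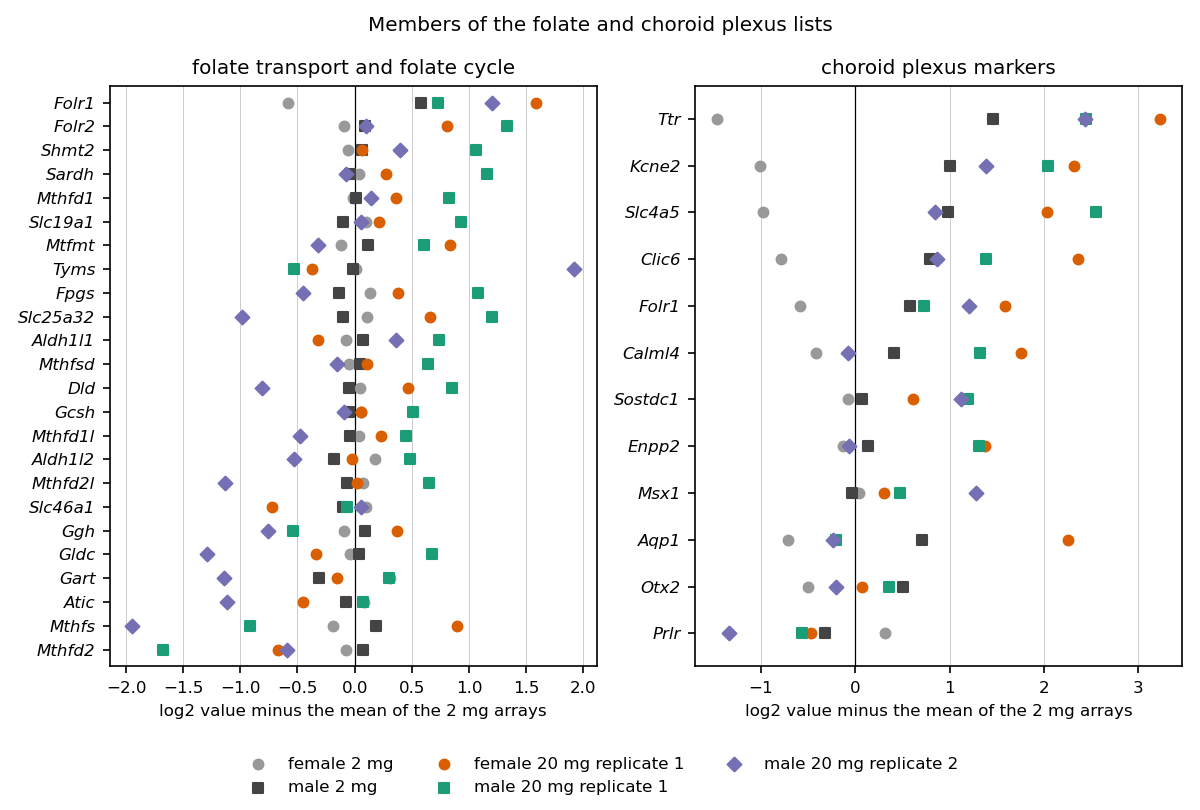
Log2 signal minus the 2 mg mean (horizontal axes) for members of the folate list (left, 24 of the 26 tested) and the choroid plexus list (right, all 12 tested), a point for each array, ordered by the difference of means. For Ttr the 20 mg points lie right of both 2 mg points, which are 2.92 apart.

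Choroid plexus markers gave the largest share of separated members of the 35 lists described. The choroid plexus, an epithelium that secretes cerebrospinal fluid, hangs into the fourth ventricle beside the cerebellum. Of 12 tested markers 6 were higher (50%, beside 8.24% of all genes) and 1 was lower. A difference of 2.5-fold was passed by 4, and the median difference was 0.99. Ttr, the transthyretin that carries thyroid hormone, stood at 12.07, 15.00, 16.77, 15.98 and 15.97 (2.70 ± 0.79, 6.52-fold). The female 2 mg array was far below the male 2 mg array, by 2.92, which is more than the step of 0.98 from male 2 mg to the lowest 20 mg array. The potassium channel subunit Kcne2 (6.86, 8.88, 10.19, 9.91 and 9.26) and the chloride channel Clic6 (8.12, 9.70, 11.27, 10.30 and 9.77) had the same order of the 2 mg arrays. The other higher markers were Folr1, Sostdc1 (0.98 ± 0.47) and Msx1 (0.69 ± 0.52).

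Aqp1, the water channel of this epithelium, overlapped at 8.15, 9.58, 11.12, 8.66 and 8.63, and Otx2, which specifies it, at 12.39, 13.40, 12.97, 13.25 and 12.69. Prlr was lower (-0.79 ± 0.52), and Kl and Cldn2 were not well above background on all arrays. The summed signal of the list was 14.30 to 15.81 (log2) at 2 mg and 16.36 to 17.21 at 20 mg. Without the female 2 mg array 6 members were higher and the median was 0.72, and without the male 2 mg array 11 were higher. Among all genes the same steps put 1889 of 14260 and 1889 of 14249 at higher values. After centring by GC content 7 were higher, beside 1341 of all 14246 genes. In pooled tissue more cells of a type and more RNA per cell cannot be told apart, and the part of choroid plexus tissue in other differences was not tested.

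Of 39 tested imprinted genes, which are expressed from the allele of a single parent, 3 were higher and 7 lower (7.69% and 17.9%). The shares of all genes were 8.24% and 7.86%, and the median of the list was -0.13. Ndn, a paternally expressed gene of neuronal differentiation, stood at 11.98, 12.85, 13.30, 13.53 and 13.94 (1.18 ± 0.39). Its neighbours Magel2 (13.16, 12.73, 12.34, 12.54 and 11.96) and Mkrn3 (11.02, 10.88, 10.77, 9.60 and 9.35) were lower on every 20 mg array, so this cluster showed both directions. Snrpn overlapped at 13.07, 13.50, 14.25, 15.55 and 13.49. Meg3, a maternally expressed noncoding RNA, was higher by 0.42 ± 0.35, while Dlk1 of the same cluster was lower by 0.53 ± 0.36 on the log2 scale. Zim1 (-0.93 ± 0.66) and Asb4 (-0.82 ± 0.46) had the widest gaps among the lower members, together with Usp29 (-0.42 ± 0.32) and Calcr (-1.05 ± 0.56). Kcnq1ot1 was higher by 0.45 ± 0.39 by its brightest probe, and its other probe was not separated. H19, Igf2, Peg3 and Cdkn1c overlapped. After centring by GC content 6 members were higher and 9 lower, beside 1341 and 1274 of all 14246 genes.

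In 2 lists of activity and stress the separated members were lower. Of 20 tested immediate early genes, transcribed within minutes of neuronal activity, 6 were lower (30%, beside 7.86% of all genes). The median of the list was -0.20, and the lower members were Fos, Egr1, Dusp6, Maff, Nr4a2 and Arc. Fos stood at 9.25, 7.98, 7.76, 7.91 and 6.71, so that the male 2 mg array was only 0.07 above the highest 20 mg value. Dusp6, the ERK phosphatase, stood at 12.48, 12.45, 12.19, 11.58 and 12.10 (-0.51 ± 0.34) and had the widest gap of the list, at 0.27. Jund (0.19 ± 0.63) and Klf2 (0.25 ± 0.59) overlapped with values at 20 mg on both sides. After centring by GC content 0 were higher and 7 lower, and without male 20 mg replicate 2 6 of 22 were higher and 9 lower. The same settings gave 1341 higher and 1274 lower of all 14246 genes, and 5032 and 2274 of 15061.

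Of 24 tested genes of the heat shock and unfolded protein responses 6 were lower (25%, beside 7.86% of all genes). The median of the list was -0.37, and the lower members were Trib3, Hspb1, Xbp1, Chac1, Hspa5 and Asns. Xbp1, a transcription factor of the unfolded protein response, stood at 13.69, 13.70, 13.26, 13.38 and 13.10 (-0.45 ± 0.29). Hspa5, the chaperone BiP of the endoplasmic reticulum, stood at 14.72, 14.76, 14.67, 14.24 and 13.90 (-0.47 ± 0.33), with female 20 mg replicate 1 barely below the 2 mg values. Chac1, which degrades glutathione, stood at 11.71, 11.39, 10.46, 11.12 and 11.00 (-0.69 ± 0.39). Atf4 and Ddit3, upstream factors of Trib3 and Chac1, overlapped at -0.51 ± 0.51 and -0.39 ± 0.49. After centring by GC content 1 was higher and 3 lower, without male 20 mg replicate 2, 4 were higher and 8 lower, and under the 75th percentile shift 0 were higher and 12 lower. Counts over all genes were 1341 and 1274 of 14246, 5032 and 2274 of 15061, and 1003 and 1582 of 14246 in these settings.

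Of the 66 tested subunits of oxidative phosphorylation 4 were higher and 16 lower (6.06% and 24.2%, beside 8.24% and 7.86% of all genes). Their differences were small, with a median of -0.13. Ndufc1 (15.32, 15.26, 14.82, 14.93 and 14.57), Uqcrb (15.08, 15.09, 14.84, 14.26 and 14.57) and Cox7a2 (15.31, 15.18, 14.85, 14.53 and 14.96) had the widest gaps among the lower subunits. Ndufa10 went the other way, at 11.82, 11.99, 12.72, 13.03 and 12.34 (0.79 ± 0.34). Of 78 ribosomal proteins 7 were higher and 9 lower, with a median of 0.01, and Rpl39 (-0.71 ± 0.30), Rpl36a (-0.54 ± 0.30), Rpl37 (-0.37 ± 0.30) and Rps9 (0.51 ± 0.34) had the widest gaps. Both lists turned on the scaling. Under the 75th percentile shift 33 subunits and 46 ribosomal proteins were lower, and after centring by GC content 10 subunits and 10 ribosomal proteins were. Beside them, 1582 and 1274 of all 14246 genes were lower in these settings.

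In hypoxia and glycolysis 2 of 28 were higher and 4 lower. Egln1, the oxygen-sensing prolyl hydroxylase, stood at 5.36, 5.74, 6.75, 6.73 and 7.16 (1.34 ± 0.40), while P4ha1 (-1.04 ± 0.61), Hk1 (-0.95 ± 0.52) and Vegfa (-0.48 ± 0.40) were lower. Another probe of Hk1 was higher on every 20 mg array. Of 23 genes of cholesterol synthesis 1 was higher (Mvd, 0.79 ± 0.43) and 2 were lower, among them Hsd17b7 (-0.50 ± 0.46). Of 24 histone genes 3 were lower and 0 higher, H2bc4, H3f3a (-0.70 ± 0.32) and H1f2 (-0.88 ± 0.55). The histone list turned on single arrays. Its median of -0.21 became 0.31 without female 20 mg replicate 1, with 7 higher and 3 lower, and -0.79 without male 20 mg replicate 2, with 2 higher and 13 lower. Those steps gave 2480 higher and 2749 lower of all 14250 genes, and 5032 and 2274 of 15061. Of 20 clock genes 1 was lower (Nfil3, -0.40 ± 0.38).

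Of 37 genes of the cell cycle and DNA replication 0 were higher and 2 lower (5.41%), beside 8.24% and 7.86% of all genes. The median difference of the list was 0.13. The lower members were Pola1 at 9.72, 9.87, 9.10, 8.95 and 9.07 (-0.75 ± 0.43) and Cdk1 at 9.76, 10.13, 9.64, 7.81 and 8.61 (-1.25 ± 0.63). Pola1 encodes the catalytic subunit of DNA polymerase alpha, and its 20 mg values lay within 0.14 of each other. In the Sonic hedgehog pathway Ccnd2, the cyclin D2 of granule cell precursors, was higher (0.73 ± 0.38), 1 of 17, and it overlapped after centring by GC content. The cell cycle count moved with single arrays. Without the male 2 mg array 11 of these genes were higher and 2 lower, and without male 20 mg replicate 1, 0 were higher and 10 lower. Corresponding counts over all genes were 1889 and 1987 of 14249, and 1562 and 2693 of 15213.

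Of 44 axon guidance genes 3 were higher and 3 lower. Robo3, which blocks Slit repulsion in commissural axons before the midline, stood at 7.55, 7.39, 8.29, 8.49 and 8.61 (0.99 ± 0.46), and Robo1, a Slit receptor, stood at 13.00, 13.34, 12.33, 11.88 and 11.86 (-1.15 ± 0.33). These members of the Robo family thus lay on opposite sides. Plxnb1, a semaphorin receptor, was higher (0.83 ± 0.50), and Efna2, an ephrin, was lower (-0.67 ± 0.46).

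Among 40 glutamate genes 5 were higher and 6 lower. Grin2d, the NMDA receptor subunit of the early brain, stood at 7.73, 8.09, 8.81, 9.22 and 9.17 (1.15 ± 0.47), the postsynaptic scaffold Homer2 at 8.97, 9.31, 10.32, 10.53 and 9.90 (1.11 ± 0.45) and Grm7, a presynaptic metabotropic receptor, at 12.57, 12.07, 11.74, 11.44 and 11.11 (-0.89 ± 0.37). Of 27 genes of GABA and glycine signalling 2 were higher, among them the receptor subunit Gabrd (1.25 ± 0.50), and 2 lower, among them the scaffold protein Gphn (-0.53 ± 0.32). The other probe of Homer2 was not separated.

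Of 44 voltage-gated channel genes 5 were higher and 5 lower. Cacnb2, a calcium channel subunit, stood at 6.02, 6.46, 7.76, 8.05 and 7.01 (1.37 ± 0.50), Kcnma1 differed by -0.46 ± 0.31 and Kcnc1 by -1.09 ± 0.55. Other probes of Kcnma1 disagreed, with 1 of 2 higher. In Notch and Wnt signalling 4 of 38 were higher, among them Wnt7a (0.62 ± 0.47), Fzd2 (0.44 ± 0.42) and Dvl1 (0.54 ± 0.36), and 4 lower, among them the Notch ligand Dll3 (-0.67 ± 0.36). These 4 overlapped after centring by GC content. In a list of neural genes that the study names from these same arrays, 8 of 132 tested were higher and 18 lower (6.06% and 13.6%), and since they were chosen on these samples, this is not independent evidence of a direction. That list lacked 10 of the genes the study names, and with the 6 of these that were tested, 10 of 138 were higher and 19 lower. Among the 138 the widest gaps belonged to Adcy3, Robo1 (0.68), which the list lacked, Ptn (15.36, 15.53, 15.86, 15.86 and 15.86), Nos1 (-0.85 ± 0.51) and Kcnma1.

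**Figure D5:**
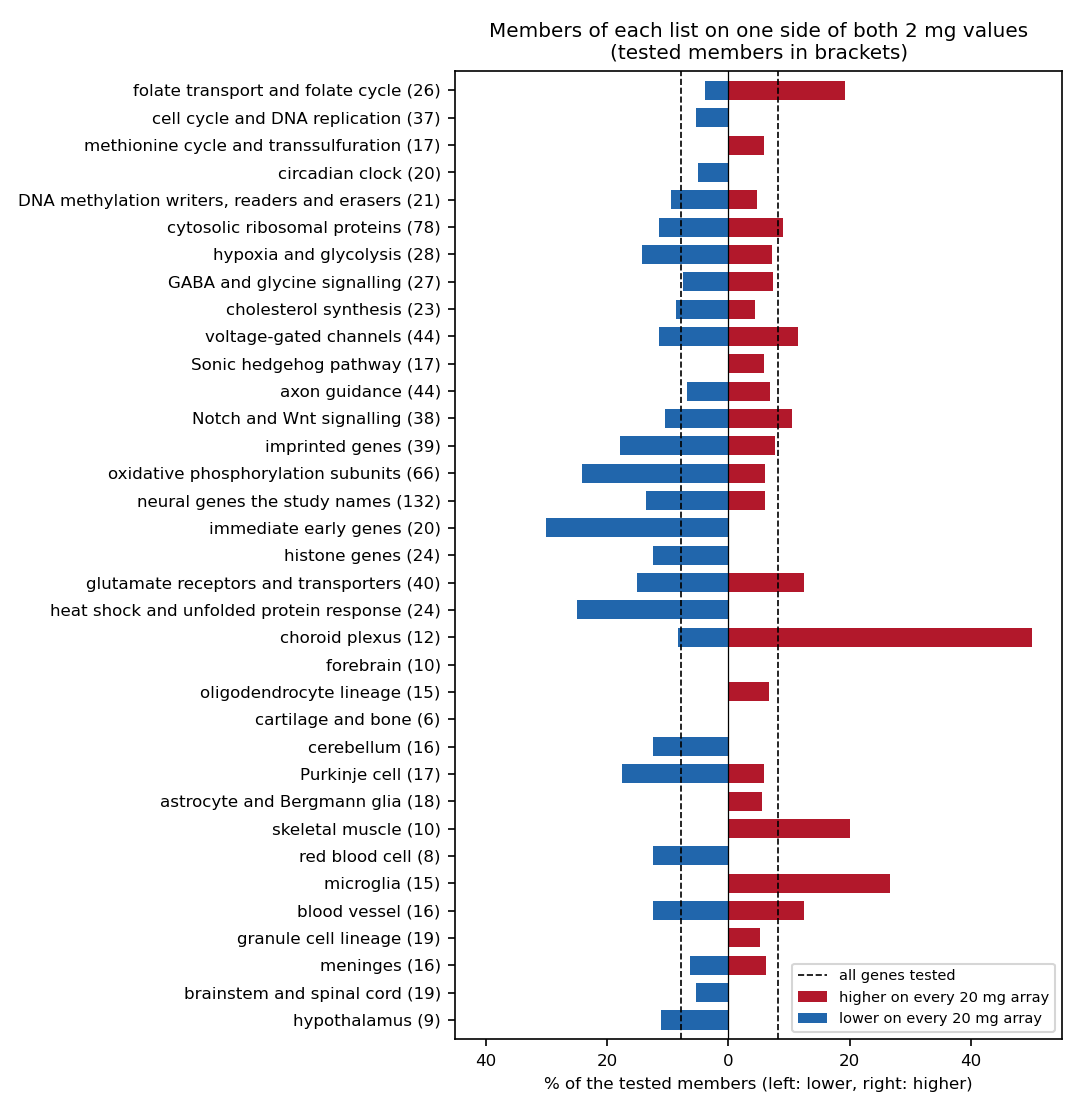
Share of the tested members of each list (number in brackets) higher (right) or lower (left) on every 20 mg array, with dashed lines at the shares of all genes tested, 8.24% and 7.86%. Choroid plexus reaches 50% higher and immediate early genes 30% lower.

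When single arrays were left out in turn, the median difference changed sign at least once in 27 of the 35 lists. It kept its sign in the other 8, the lists of choroid plexus, blood vessel and granule cell markers, immediate early genes, heat shock and unfolded protein response, oxidative phosphorylation, axon guidance and glutamate receptors.

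Of 20 markers of the cerebellum, 16 were well above background on all 5 arrays, and En1, Barhl2, Pax2 and Skor2 were not. Among the 16, Zic1 reached 15.06 to 16.12 and En2 11.10 to 13.96, and 2 were lower, Cbln1 (-0.34 ± 0.30) and Lhx1 (-0.54 ± 0.36). In the granule cell lineage Reln was the separated gene of 19, and of 17 Purkinje cell markers 1 was higher and 3 lower (Car8, Lhx1 and Ebf1, -0.88 ± 0.45). Of 20 forebrain markers 10 were well above background on all 5 arrays and 0 were separated. Their summed signal was 14.97 to 15.34 (log2) at 2 mg and 15.62 to 16.80 at 20 mg, and its part in the results was not tested. Of the 19 tested markers of brainstem and spinal cord 1 was lower, Hoxa5, at 12.76, 10.12, 9.93, 7.79 and 10.11, where the 2 mg arrays differed by 2.63 from each other. The 2 mg arrays decided the direction of this list. Its median of -0.34 became -1.10 without the male 2 mg array, with 0 higher and 8 lower, and 0.45 without the female 2 mg array, with 5 higher and 2 lower. Omitting these arrays gave 1889 higher and 1987 lower of all 14249 genes, and 1889 and 1777 of 14260. Of 9 hypothalamic markers Crh was lower (-1.01 ± 0.56), and without the same arrays 0 were higher and 6 lower, and 2 higher and 1 lower.

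Of 15 microglia markers 4 were higher, C1qb (8.39, 8.93, 9.51, 9.94 and 10.13), Laptm5, Tyrobp and C1qa, while the median of the list was -0.05. After centring by GC content 1 was higher and 1 lower, beside 1341 and 1274 of all 14246 genes. In blood vessels Tek and Slco1a4 were higher and Flt1 and Cdh5 lower, of 16. Fmod was higher and Foxc1 lower of 16 meningeal markers. Aqp4 was higher of 18 markers of astrocytes and Bergmann glia, Mobp of 15 of the oligodendrocyte lineage, and Tnnc1 and Tnnt1 of 10 of skeletal muscle. Bpgm was lower of 8 red blood cell markers, and 0 of 6 cartilage and bone markers were separated.

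At the edge of the description, Carf and Aff2 were just inside with gaps of 0.0003 and 0.0004, and 0610010K14Rik and Eif3g just outside, with a 20 mg value equal to a 2 mg value. Other probes and the array left out for low signal were also read, and neither is independent of the choice. Other probes of the higher genes were higher on every 20 mg array in 94 of 299 cases (31.4%) and lower in 10, while 16.3% of other probes of all genes were higher. For the lower genes 75 of 448 other probes (16.7%) were lower and 47 higher, against 6.35% lower over all genes. Such probes share the 5 hybridizations with the first. For the array left out, all 6 arrays were quantile normalized together in a separate step. That step gave this dim array, with 24.1% of its spots well above background, the same distribution of values as the others. It is set against the same 2 mg arrays that chose the genes, so its counts support no direction. There 519 of the higher genes were well above background, and 385 (74.2%) were above both 2 mg values, against 61.7% of all 8118 such genes. Of 746 lower genes there, 323 (43.3%) were below both 2 mg values, against 32.4%. Among 6635 tested probes with no matched gene, 449 (6.77%) were higher and 479 (7.22%) lower on every 20 mg array.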

How the data were processed

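RNA of 6 pools of P1 cerebellum was measured on single-colour Agilent arrays, and 5 arrays were compared here. The deposited processed signal is an intensity on a linear scale, which the authors took from Agilent Feature Extraction (version 10.7.3.1 in the submitters' processing notes). That software subtracts the background and removes the trend over the slide without scaling between arrays. The deposited mean and background brightness, also intensities, served an alternative. The authors' deposited value table holds log2 values after quantile normalization in BRB-ArrayTools. That table was used as an alternative. The software's flags marked outlier spots and spots well above background, and both are deposited as scores of 0 or 1.

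Outlier and control spots were left out, the spots of a probe were averaged, and log2 signals were quantile normalized across the 5 arrays, with any signal under 10 then set to 10. Of 55681 probes, 25746 were well above background on all 5 arrays, and 0 columns came from samples of other studies. Names came from a RefSeq table (GRCm38.p6), in which 21465 of the 22765 accessions on the array were found, and 24283 probes have no matched gene. Probe positions are those of the array design (mm9). The brightest probe stood for each gene. limma 3.58.1 (R 4.3.3) compared 3 arrays at 20 mg with 2 at 2 mg, using lmFit and eBayes with a trend, 3 residual degrees of freedom and Benjamini-Hochberg adjustment over all probes. Tested on simulated data with 200 of 25746 probes changed by 4 on the log2 scale at the noise of the arrays, the fit recovered 103, and at a change of 2 it recovered 0. The pools hold different pups and the arrays lie on 3 slides, so p-values measure the spread between these arrays, slide included.

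The genes named are the 12 with the widest gap in each direction, up to 4 separated members per list and the members of the folate and methionine lists. Some members of the lists are not reported here by name, though counts include them. Others named beside a count were chosen after their values were seen. The members, the 20 pathway lists and the 15 marker lists were chosen with earlier results of these data known. Samples were grouped by dose and sex in their titles. Alternatives changed the normalization, background correction, floor, filter, probe choice, blocks and arrays.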

Additional observations from a re-analysis of the deposited data

Results flagged for a closer look

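Some members of the folate and methionine lists that overlapped between the doses were picked for a pattern by sex. In these the female array at 20 mg differed from the female 2 mg array in a given direction. Both male arrays at 20 mg differed from the male 2 mg array in the opposite direction. Other overlapping members did not meet this rule, and the share of all genes that meet it was not counted. The female difference minus the male difference was -0.5559 for Ahcyl2, -0.7268 for Aldh1l1, -1.3063 for Cbs, -0.9152 for Slc46a1 and -1.062 for Srm, where the male arrays were higher at 20 mg. It was 1.544 for Cth, 1.1971 for Ggh, 2.6985 for Mthfs and 0.7314 for Odc1, where the male arrays were lower. With 1 array for each sex at 2 mg these differences between the sexes were not tested. The female array at 20 mg lies on the slide of the 2 mg arrays and both male arrays at 20 mg on other slides, so sex and slide cannot be told apart.

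The array left out for its low signal read 44 of the named separated genes well above background, 16 of them higher and 28 lower on the 5 arrays. Of the 16, 10 lay above both 2 mg values there, 4 below both and 2 between them, and of the 28, 14 lay below both, 11 above both and 3 between. Among all 8118 genes well above background there, 61.7% lay above both 2 mg values and 32.4% below both. The 10 of 16 are thus near the share of all genes. The 10 were Kcne2 (4.0262 above the mean of the 2 mg arrays on the log2 scale), Tet3 (3.6853), Ccl19 (2.6261), Folr1 (2.4469), Dvl1 (2.0348), Ttr (1.8585), Tnnt1 (1.49), Tyrobp (1.4195), Mvd (0.6148) and Aqp4 (0.3745). The 11 that went against their direction were Trib3 (1.2313 above), Crh (0.6311), Uqcrb (0.4594), Ndufc1 (0.4235), Asb4 (0.4007), H2bc4 (0.3566), Rpl36a (0.3538), Dusp6 (0.3522), Rpl37 (0.3005), Mbd6 (0.2521) and Cox7a2 (0.146). The 4 higher genes below both 2 mg values there were Ptn, Ndufa10, Mthfd1 and Rps9. The 2 mg values are the ones that chose these genes.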

How the results depend on the processing

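The counts of separated genes were 1174 higher and 1120 lower. They stayed within 1.5 times these counts, with 0 limma calls, under the 75th percentile shift, quantile normalization over 6 arrays, the floor before normalization, normexp, the authors' value table, all filters on dim probes, the mean of all probes, outlier spots kept, a term for sex, eBayes without trend and centring by GC content. The count past 2.5-fold was 177 and became 82 with normexp, 336 when being well above background on all arrays of either dose was enough and 483 with no background filter. With slide as a term, 6435 genes were higher and 5176 lower, 307 were past 2.5-fold and limma called 2460 probes, because only the 3 arrays of slide 1 then give the difference. With scan day as a term 2653 were lower. With all 6 arrays 404 were higher and 322 lower, where 8253 genes could be tested. Leaving out 1 array at a time gave 1562 to 5032 higher genes, 1777 to 2749 lower genes, 163 to 707 past 2.5-fold and 0 limma calls. The extremes came without male 20 mg replicate 1 (1562 and 163), male 20 mg replicate 2 (5032 and 707), the female 2 mg array (1777) and female 20 mg replicate 1 (2749). The smallest adjusted p of limma was 4.53e-10 with slide as a term and between 0.0608 and 1 elsewhere.

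Of the 24 genes with the widest gaps, 23 kept their side with the mean of all probes and 23 after centring by GC content, and with all 6 arrays 3 of the 5 that could be tested did. Only 16 of the 24 had a mean log2 signal of at least 8. Under the other alternatives every one with a value kept its side. That followed almost entirely from how the genes were chosen where arrays were left out, a term was added or a filter changed. eBayes without trend does not alter the values. The differences of 3 named genes changed sign with the mean of all probes, to -0.2919 for Kcnq1ot1, 0.0291 for Hk1 and 0.0014 for Vegfa, and that of Ptn was -0.206 with all 6 arrays. The cause was not tested. No paired analysis was possible because the 2 mg arrays carry no replicate number. A probe near background on any of the 5 arrays was not tested, so genes silent at either dose are not described.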
